A study of Mus musculus with 8 samples.

Results

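The polyamine genes examined here were 10 rows of a table of gene counts, found by a fixed set of symbols with no threshold on a measured value, although that set was drawn up with earlier results of these data known: Odc1, Amd1, Srm and Sms of polyamine synthesis, Azin1, Oaz1 and Oaz2 of the control of ornithine decarboxylase, Sat1 and Smox of catabolism, and Dhps of hypusine synthesis. All 10 were found among the 56805 rows, and all 10 were among the 16006 genes that passed the filter on low counts. Their counts lay between 589 and 32311 per column, so that counting error was small for every member.

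The RNA came from OT-I T cells, CD8+ T cells whose transgenic receptor recognizes an ovalbumin peptide, taken from mice that also carried a Cas9 knock-in at Rosa26. After activation in vitro, a lentivirus delivered a guide RNA that was either non-targeting (sgNT) or directed at Elovl1 (sgElovl1), which encodes an elongase of very long-chain fatty acids. Transduced cells were sorted by the CD90.1 reporter of the vector 3 days after transduction, and their total RNA was sequenced. The labels list 8 samples, 2 mice for each guide in each of 2 experiments, and the table holds 4 columns, each the sum of the counts of 2 mice (sgNT and sgElovl1 of experiment 1, sgNT and sgElovl1 of experiment 2). All groups therefore shared the OT-I receptor, the constant Cas9 expression, the activation and the vector, and the guides acted in a pool of cells rather than in a clone. The ages of these mice were not in the labels.

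Polyamines are small positively charged molecules that bind RNA, DNA and chromatin. Ornithine decarboxylase (Odc1) makes putrescine from ornithine, S-adenosylmethionine decarboxylase (Amd1) supplies aminopropyl groups, spermidine synthase (Srm) turns putrescine into spermidine, and spermine synthase (Sms) turns spermidine into spermine. Antizymes bind ornithine decarboxylase and target it to the proteasome, and antizyme inhibitors hold antizymes back. Spermidine also provides the aminobutyl group that is joined to a lysine of the translation factor eIF5A to build hypusine. T cells are known to raise polyamine synthesis when they are activated and begin to divide.

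The 4 columns held between 49068952 and 63623476 counts, and 3 counts corresponded to between 0.0472 and 0.0611 CPM (counts scaled to library size, by TMM where levels are given). The targeted gene was read first. Elovl1 stood at 110 CPM and 93.5 CPM in the sgNT columns of experiments 1 and 2, and at 61.3 CPM and 55.8 CPM in the sgElovl1 columns, which is 57.5% of sgNT in the fit over both experiments (log2 fold change -0.80, SE 0.07). An exact two-sided permutation test of 2 against 2 columns cannot go below 0.333, which is the p it gave for Elovl1. The summed level of the 10 markers of CD8 T cells lay between 6780 and 7026 CPM. Of 34 markers of B, myeloid, CD4 and regulatory T, NK, erythroid, stromal and epithelial cells, 9 had no count in any column (among them Ms4a1, S100a8, S100a9, Ncr1 and Hbb-bs), and their summed level was 76.5, 85.4, 113 and 117 CPM in sgNT and sgElovl1 of experiment 1 and sgNT and sgElovl1 of experiment 2. Of these markers 17 could be tested, and none passed the test between sgElovl1 and sgNT.

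The first comparison asked how the polyamine genes stood in Elovl1-targeted cells. Odc1 and Srm fell in sgElovl1, by 0.23 and 0.33 on the log2 scale, to 85.1% and 79.6% of sgNT, and both were lower in each experiment. None of the 10 genes passed the test as higher, and the other 8 did not pass it, among them Sat1, which was higher in each experiment. Across all genes tested, 1.2% passed it, 0.437% as lower and 0.762% as higher in sgElovl1 (edgeR's quasi-likelihood test with experiment as a term, Benjamini-Hochberg adjusted p below 0.05). In RNA from whole cell populations, fewer cells that express a gene and less RNA of it per cell cannot be told apart.

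**Figure D1:**
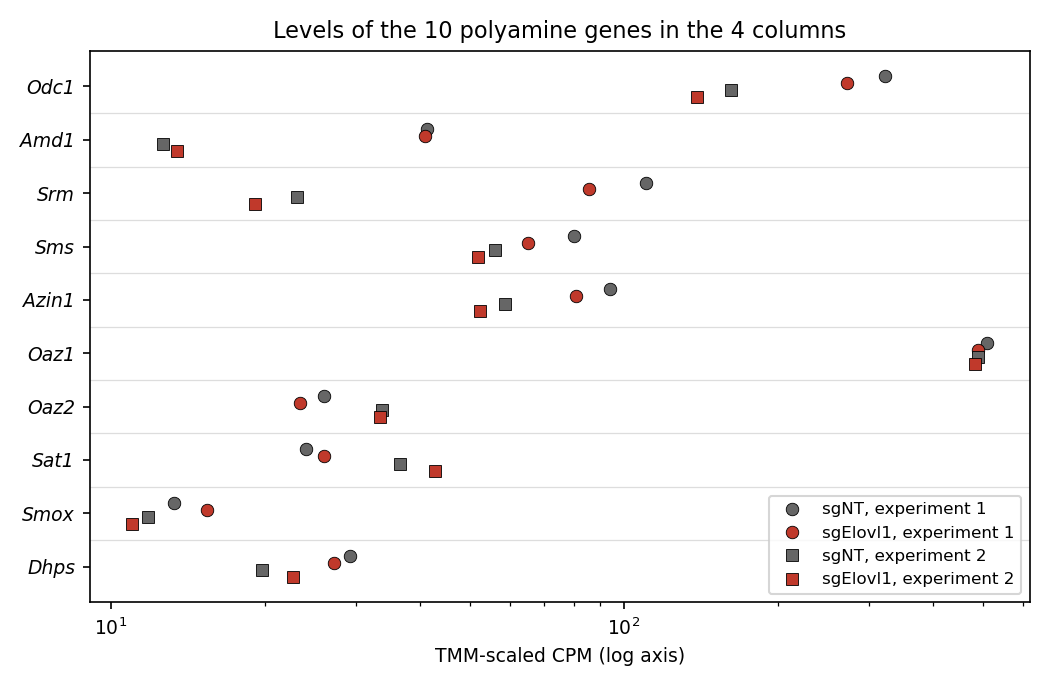
TMM-scaled CPM (log axis) of the 10 polyamine genes, with 1 point for each of the 4 columns (grey for sgNT, red for sgElovl1, circles for experiment 1, squares for experiment 2). Oaz1 was counted at close to 500 CPM in every column, and the squares of Srm and Amd1 stand far to the left of their circles.

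Odc1, the first enzyme of the pathway, was counted at 323 CPM in sgNT and 273 CPM in sgElovl1 of experiment 1, and at 162 CPM in sgNT and 139 CPM in sgElovl1 of experiment 2. The sgElovl1 column was the lower in each experiment, while the ranges of both conditions overlapped because experiment 1 was high under either guide. The log2 fold change was -0.23 (SE 0.06, 95% interval -0.36 to -0.11), with -0.24 in experiment 1 and -0.22 in experiment 2, and an adjusted p of 0.0295 in edgeR's test.

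Srm, spermidine synthase, was counted at 110 CPM in sgNT and 85.3 CPM in sgElovl1 of experiment 1, and at 23.1 CPM and 19.1 CPM in experiment 2. Again the sgElovl1 column lay below its sgNT column in each experiment, and every column of experiment 1 lay far above every column of experiment 2. The log2 fold change was -0.33 (SE 0.07, 95% interval -0.47 to -0.19), with -0.37 in experiment 1 and -0.27 in experiment 2, and the adjusted p was 0.00212. By p, Srm ranked 44 and Odc1 142 of 16006 genes.

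The standard errors rest on a spread shared by all genes, since the fit leaves 1 residual degree of freedom. With DESeq2's Wald or likelihood-ratio test or a filter at a mean of 5 CPM neither gene passed. The likelihood-ratio test is the one that the paper names for these cells, without the terms of its model. Here that test gave an adjusted p of 0.1769 for Odc1 and 0.1745 for Srm. Neither passed once the trend of the guide difference along the experiment difference was taken out (log2 fold change of Odc1 -0.14, Srm -0.13). That trend was fitted over genes with a mean of at least 5 CPM. Without the experiment term no member passed. With 1 column left out, its guide was left with a column of a single experiment. The sign of both genes then reversed without sgNT of experiment 1 (Odc1 0.35, Srm 1.18) or sgElovl1 of experiment 2 (0.19 and 0.37). Genes of the mitochondrial genome took 7.72% of the counts in sgNT and 9.72% in sgElovl1 of experiment 1, and 10.2% and 14.3% in experiment 2, and with these and the 20 most counted genes left out of the scaling Srm passed and Odc1 did not, at a log2 fold change of -0.21 (adjusted p 0.0623). The summed markers of other cell types given above were also higher in sgElovl1 in each experiment, though none of the 17 tested passed. The most counted of these markers were Zbtb7b and Pecam1. Single markers went either way. Zbtb7b was at 25.5 CPM in sgNT and 25.4 CPM in sgElovl1 of experiment 1, and at 26.9 and 26.6 CPM in experiment 2. Pecam1 was at 24.7 CPM in sgNT and 29.7 CPM in sgElovl1 of experiment 1, and at 48.9 and 50.8 CPM in experiment 2. Csf1r was lower in sgElovl1, at 0.695 and 0.494 CPM in experiment 1 and 1.08 and 1.01 CPM in experiment 2. The part of these markers in the result was not tested.

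Sms, which makes spermine, was counted at 80.0 CPM in sgNT and 65.1 CPM in sgElovl1 of experiment 1, and at 55.9 and 51.9 CPM in experiment 2. Its log2 fold change of -0.20 (SE 0.07, 95% interval -0.34 to -0.07) did not pass the test (adjusted p 0.135), with -0.30 and -0.11 in the experiments. Amd1, whose product commits S-adenosylmethionine to the pathway, had nearly the same level under both guides. It stood at 41.3 CPM in sgNT and 41.0 CPM in sgElovl1 of experiment 1 and at 12.6 and 13.5 CPM in experiment 2, a log2 fold change of 0.03 (95% interval -0.13 to 0.20, adjusted p 0.947). Among the enzymes of synthesis, Odc1 and Srm thus passed the main test, and Sms and Amd1 did not. The log2 fold change of Sms, -0.20, still lay close to the -0.23 of Odc1.

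To show what the promoters of these genes look like, the mouse RefSeq stretches upstream of the annotated start are printed for Odc1, which fell, for Amd1 and Sms, which did not pass, and for Sat1 of the catabolic side. They are given 5′ to 3′ on the strand of the gene in build GRCm38.p6 (the counts were made on GRCm39), at chr12:17544623-17544793 on the plus strand for Odc1, chr10:40302189-40302438 on the minus strand for Amd1, chrX:157492288-157492537 on the minus strand for Sms and chrX:155216450-155216699 on the minus strand for Sat1. Capitals mark the GC box (GGGCGG, or CCGCCC on the other strand), the CCAAT box (CCAAT) and the E-box that Myc and related factors bind (CACGTG). The stretch of Odc1 stops at its GENCODE start, at -79 from the RefSeq start, and so has 171 bases. A further GC box of Odc1 at -15 is therefore not printed.
Odc1: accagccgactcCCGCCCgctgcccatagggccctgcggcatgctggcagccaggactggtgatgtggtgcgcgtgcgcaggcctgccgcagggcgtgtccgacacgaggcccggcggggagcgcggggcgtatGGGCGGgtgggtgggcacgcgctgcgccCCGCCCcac
Amd1: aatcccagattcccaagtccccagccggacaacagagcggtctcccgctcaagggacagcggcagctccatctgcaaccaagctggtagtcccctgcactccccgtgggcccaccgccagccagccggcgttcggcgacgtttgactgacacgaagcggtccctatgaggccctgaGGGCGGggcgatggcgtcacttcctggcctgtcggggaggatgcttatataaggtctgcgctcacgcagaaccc
Sms: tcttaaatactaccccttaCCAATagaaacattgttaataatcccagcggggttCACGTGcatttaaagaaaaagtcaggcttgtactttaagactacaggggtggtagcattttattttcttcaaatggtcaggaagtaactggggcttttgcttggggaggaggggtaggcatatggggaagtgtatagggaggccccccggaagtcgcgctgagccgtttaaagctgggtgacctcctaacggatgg
Sat1: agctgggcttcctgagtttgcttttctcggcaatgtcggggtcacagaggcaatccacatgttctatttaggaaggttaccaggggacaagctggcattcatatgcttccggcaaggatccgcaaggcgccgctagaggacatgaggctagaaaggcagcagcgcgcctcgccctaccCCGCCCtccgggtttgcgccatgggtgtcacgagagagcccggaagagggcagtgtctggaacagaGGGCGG
Of the members, 8 had 9 windows in the table, each of 250 bases before and 50 after a start. Srm and Azin1 had none. CACGTG was found in 1 of these 9 windows, that of Sms at position -196, and in 7.15% of all 32851 windows. GGGCGG on either strand was found in 6 of the 9 windows (Amd1, Oaz2, Odc1, Sat1, Smox and a second start of Sms) and in 35.7% of all windows. CCAAT was found in the windows of Oaz1 and Sms and in 37.4% of all windows. TATAAA, the letters of the TATA box, was found in that of Oaz1 and in 13.6% of all. In Oaz1 these letters begin at position -3 and run across the annotated start. Each motif was searched on both strands, none is contained in another, and a match describes only the letters of a window. Stretches further into a gene, such as its introns beyond the window, were not searched.

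Among the genes that control ornithine decarboxylase, none passed the test. Azin1, the antizyme inhibitor, was counted at 94.1 CPM in sgNT and 80.5 CPM in sgElovl1 of experiment 1, and at 58.6 and 52.3 CPM in experiment 2. Like Odc1 it was lower in sgElovl1 in each experiment, with a log2 fold change of -0.20 (SE 0.07, 95% interval -0.33 to -0.06, adjusted p 0.156). Oaz1, the main antizyme, was counted at 510, 489, 490 and 483 CPM in sgNT and sgElovl1 of experiment 1 and sgNT and sgElovl1 of experiment 2. Its levels spanned the smallest fold range of the 10 genes, with a log2 fold change of -0.04 (95% interval -0.17 to 0.09, adjusted p 0.911). Both of its sgElovl1 columns lay below both sgNT columns, which held for no other member and for 12.6% of all genes in either direction. Oaz2, a second antizyme, was counted at 26.1 and 23.4 CPM in experiment 1 and at 33.8 and 33.4 CPM in experiment 2, and its log2 fold change of -0.08 did not pass (adjusted p 0.804).

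Ratios of counts within a column do not depend on the scaling between columns. The ratio of Odc1 to Oaz1 was 0.633 in sgNT and 0.557 in sgElovl1 of experiment 1, and 0.329 and 0.287 in experiment 2, a log2 difference of -0.18 and -0.20. The ratio of Azin1 to Oaz1 was 0.184 and 0.164 in experiment 1 and 0.120 and 0.108 in experiment 2. Both ratios were lower in sgElovl1 than in the sgNT column of the same experiment, and both were lowest in sgElovl1 of experiment 2. The ratio of Srm to Sms was 1.38 and 1.31 in experiment 1 against 0.413 and 0.367 in experiment 2. A ratio of counts also carries the lengths of both genes, so its size is read only between columns. With 1 column per guide in each experiment these ratios were not tested.

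**Figure D2:**
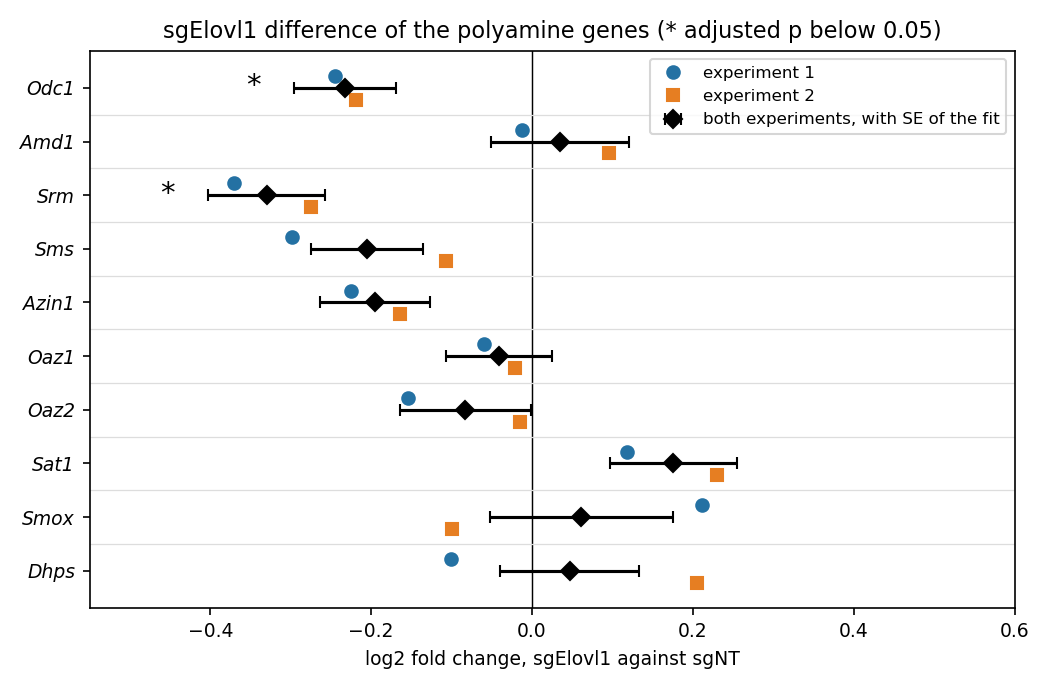
Log2 fold change of sgElovl1 against sgNT for each of the 10 genes (x axis). Circles give experiment 1, squares experiment 2 and diamonds the fit over both with its SE, and an asterisk marks Odc1 and Srm, whose adjusted p was below 0.05. Smox, Dhps and Amd1 have their circle and square on opposite sides of 0.

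On the catabolic side, Sat1 encodes the acetyltransferase that marks spermidine and spermine for export or oxidation. It was counted at 24.0 CPM in sgNT and 26.1 CPM in sgElovl1 of experiment 1, and at 36.5 and 42.8 CPM in experiment 2. It was the one member above its sgNT column in each experiment, and its log2 fold change of 0.18 (SE 0.08, 95% interval 0.02 to 0.33) did not pass the test (adjusted p 0.381). The ratio of Odc1 to Sat1 counts was 13.4 in sgNT and 10.5 in sgElovl1 of experiment 1, and 4.42 and 3.24 in experiment 2. Smox, spermine oxidase, was the member with the lowest counts, at 13.3 and 15.4 CPM in experiment 1 and 11.8 and 11.0 CPM in experiment 2. Its log2 fold change over both was 0.06 (95% interval -0.16 to 0.28, adjusted p 0.924).

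Dhps, deoxyhypusine synthase, uses spermidine in the first step of hypusine synthesis on eIF5A. It was counted at 29.2 CPM in sgNT and 27.2 CPM in sgElovl1 of experiment 1, and at 19.7 and 22.7 CPM in experiment 2. The sgElovl1 column was the lower in the first experiment and the higher in the second, and the fit gave a log2 fold change of 0.05 (95% interval -0.12 to 0.22, adjusted p 0.923). Of the other genes of that pathway, Eif5a, the substrate, was counted at 1291 and 1179 CPM in experiment 1 and at 502 and 501 CPM in experiment 2, and its log2 fold change between the guides was -0.07 (adjusted p 0.827). Dohh, which completes hypusine, and Eif5a2 did not pass either.

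Over all 10 members the median log2 fold change was -0.06, beside -0.01 over all genes tested. In 6 members (Odc1, Srm, Sms, Azin1, Oaz1 and Oaz2) the sgElovl1 column was lower in both experiments, which held for 30.1% of all genes, in 1 member (Sat1) it was higher in both, and in 3 members (Amd1, Smox and Dhps) the signs differed. An unadjusted p below 0.05 was reached by 5 members (Odc1, Srm, Sms, Azin1 and Sat1) and by 10.6% of all genes.

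The second comparison set experiment 2 against experiment 1, with the guide as a term. It showed larger differences for most of the same genes. Srm was 4.63-fold lower in experiment 2, Amd1 3.15-fold and Odc1 1.98-fold, while Sat1 was 1.58-fold higher. In all, 7 members were lower, 2 (Sat1 and Oaz2) were higher, and Oaz1 alone did not pass, which leaves the antizyme as the member with about the same level in all columns. Across all genes, 55.6% passed, 29.2% as lower and 26.4% as higher in experiment 2, and the first principal component, which separated the experiments, held 73.9% of the variance of log2 CPM. The median over the members was -0.42, beside -0.00 over all genes.

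The log2 fold change of experiment 2 against experiment 1 was -2.21 for Srm (SE 0.07, adjusted p 4.96e-184, rank 12 of 16006 by p). It was -2.26 within sgNT and -2.16 within sgElovl1. For Amd1 it was -1.66 (SE 0.09, adjusted p 4.72e-78), and for Odc1 -0.99 (SE 0.06, adjusted p 1.46e-51). These 3 genes, for the decarboxylases and spermidine synthase, stood furthest below experiment 1. Sms, the last step, differed less, at -0.42 (SE 0.07, adjusted p 5.55e-09). Azin1 was at -0.65 (SE 0.07, adjusted p 1.95e-20) and Dhps at -0.41 (adjusted p 5.06e-06). Sat1 was at 0.66 (SE 0.08, adjusted p 6.15e-16) and Oaz2 at 0.44 (adjusted p 2.22e-07). The catabolic acetyltransferase thus lay on the other side of 0 from the enzymes of synthesis. Smox, the oxidase, lay with the latter at -0.33 (SE 0.11, adjusted p 0.00862) but lost the call with DESeq2, upper-quartile scaling or the filter at 5 CPM, and without any 1 column other than sgNT of experiment 1. Dhps did not pass without sgNT of experiment 2. Oaz1 was at -0.04 (95% interval -0.17 to 0.09, adjusted p 0.663).

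Between the experiments the ratio of Odc1 to Sat1 counts in the sgNT columns was 13.4 in experiment 1 and 4.42 in experiment 2, and that of Amd1 to Sat1 was 1.72 and 0.345. The summed level of the markers of other cell types was higher in experiment 2 as well, from 76.5 and 85.4 CPM to 113 and 117 CPM. Pecam1 alone went from 24.7 to 48.9 CPM in sgNT and from 29.7 to 50.8 CPM in sgElovl1. Of 17 tested, 4 were higher and 1 was lower, beside 26.4% and 29.2% of all genes. Itgam was at a log2 fold change of 2.95, Foxp3 at 0.98 and Pecam1 at 0.88, while Epcam was the lower one at -1.33. Lyz2 had between 0 and 1 count and S100a8 and S100a9 had 0. The part of these markers in the difference was not tested. The labels do not say in what the experiments differed beyond their number.

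**Figure D3:**
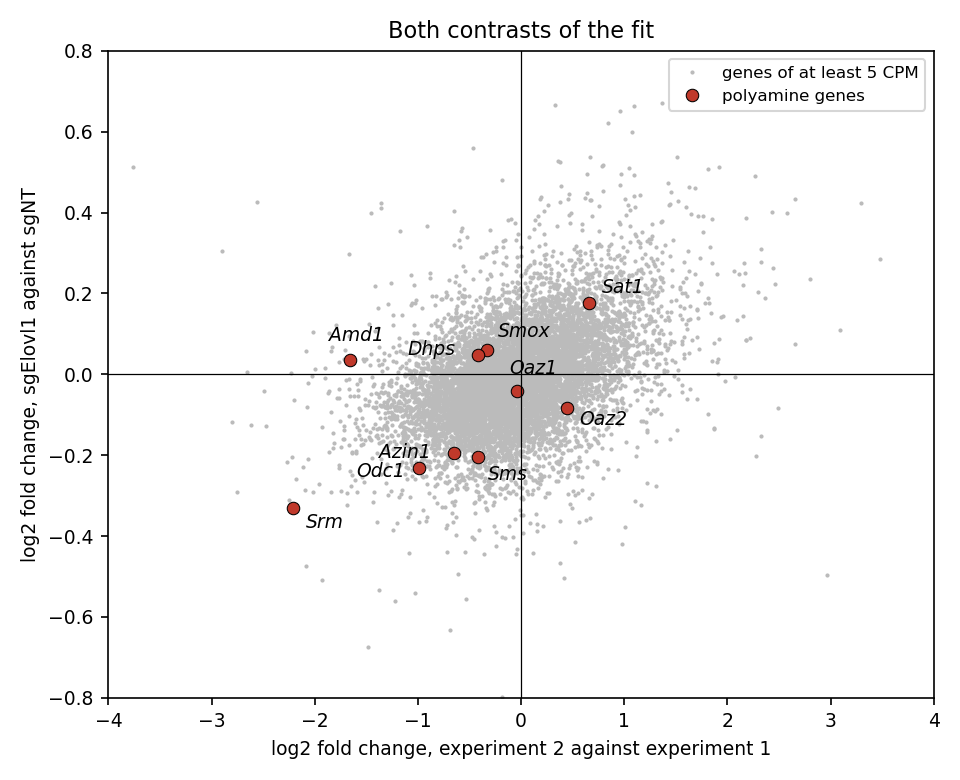
Log2 fold change of experiment 2 against experiment 1 (x axis) and of sgElovl1 against sgNT (y axis) for the polyamine genes (red, named) and for 9756 genes with a mean of at least 5 CPM (grey), of which 5 lie outside the axes. Srm lies at -2.21 and -0.33, Odc1 at -0.99 and -0.23, Amd1 at -1.66 and 0.03, and Sat1 at 0.66 and 0.18.

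The contrasts share the same 4 columns. Side by side, the log2 fold changes of Odc1 were -0.23 for the guide and -0.99 for the experiment, those of Srm -0.33 and -2.21, and those of Amd1 0.03 and -1.66. Amd1 thus had a large difference between the experiments and a guide difference near 0. Across all genes, the guide difference had a slope of 0.0887 on the experiment difference, and this is the trend that was taken out above. With it removed, the log2 fold change of Amd1 between the guides was 0.18 and did not pass the test (unadjusted p 0.0336, adjusted p 0.611).

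The wider pathway was described by lists of genes. None of their tested genes passed the test between the guides. Of the other polyamine enzymes and regulators of ornithine decarboxylase, 3 of 7 were tested. Paox, the oxidase of acetylated polyamines, had a log2 fold change of 0.02 (28.3 and 25.7 CPM in experiment 1, 19.7 and 22.4 CPM in experiment 2). Azin2 and Oaz3, known mainly from other tissues, were below 4 CPM in every column, and Sat2 was among the 3 genes of the list with 0 counts throughout.

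Of the genes that supply arginine and ornithine, 8 of 13 were tested, with a median log2 fold change of -0.08. Slc7a1, the arginine transporter, had the smallest p of the list. It was counted at 78.6 CPM in sgNT and 69.2 CPM in sgElovl1 of experiment 1 and at 41.1 and 34.7 CPM in experiment 2, with a log2 fold change of -0.21 (adjusted p 0.127). Arginase was nearly absent, with at most 1 count of Arg1 and 10 counts of Arg2. In experiment 2, 5 of the 8 were lower and none was higher, beside 29.2% and 26.4% of all genes. Among the lower were Oat, ornithine aminotransferase, at -1.08, Aldh18a1, which makes the precursor of proline and ornithine, at -0.96, and Slc7a1 at -0.96.

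Of the genes that supply S-adenosylmethionine and salvage methylthioadenosine, the by-product of the synthases, 11 of 13 were tested, with a median of -0.04. Mat2a, which makes S-adenosylmethionine, was counted at 102 CPM in sgNT and 90.4 CPM in sgElovl1 of experiment 1, and at 56.4 and 46.2 CPM in experiment 2. Its sgElovl1 column was the lower in each experiment, and its log2 fold change of -0.23 (SE 0.07) was just outside the threshold (adjusted p 0.0613). Between the experiments, 8 of the 11 were lower and none was higher, beside 29.2% and 26.4% of all genes. The lower genes were led by Mtap, the phosphorylase of methylthioadenosine, at -1.27 and Mat2a at -0.91.

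Of the genes of polyamine transport, 5 of 13 were tested, with a median of -0.06 between the guides. Atp13a3, a polyamine transporting ATPase, was counted at 101 and 89.0 CPM in experiment 1 and at 68.2 and 63.8 CPM in experiment 2 (log2 fold change -0.14, adjusted p 0.433). Slc12a8 had 2, 31, 25 and 24 counts, too few in the first column for a usable fold. Between the experiments 2 of the 5 were lower and 2 were higher, beside 29.2% and 26.4% of all genes. Slc3a2, the heavy chain of several amino acid transporters, was at -0.78, Atp13a3 at -0.52 and Atp13a2, a lysosomal polyamine exporter, at 0.91.

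Myc, the transcription factor for which Odc1 is a textbook target, was counted at 135 CPM in sgNT and 143 CPM in sgElovl1 of experiment 1, and at 98.3 and 120 CPM in experiment 2. It was the higher in sgElovl1 in each experiment, where Odc1 was the lower, and its log2 fold change of 0.18 (SE 0.06) did not pass the test (adjusted p 0.168). Between the experiments the log2 fold change of Myc was -0.35, lower in experiment 2. Of its network, 11 of 12 genes were tested, with a median of 0.02 between the guides. Between the experiments 5 were lower and 5 higher, beside 29.2% and 26.4% of all genes. Mxd4, a partner of Max that opposes Myc, was at 1.58 and Mxi1, another, at -1.34.

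**Figure D4:**
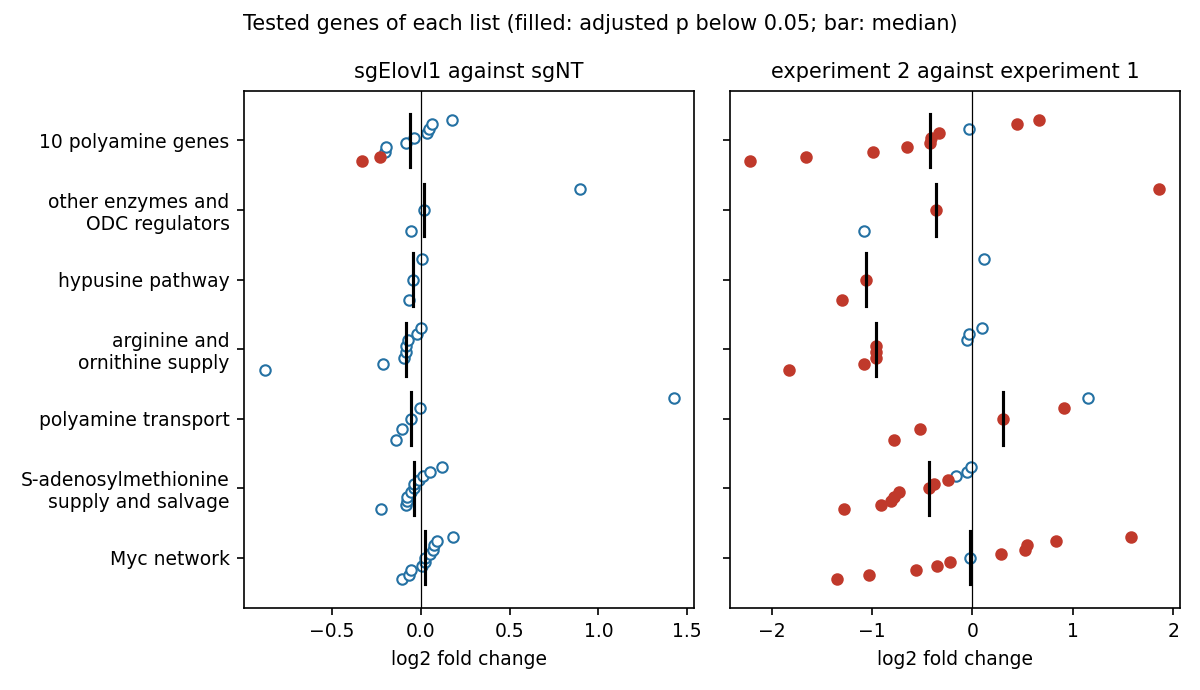
Log2 fold change of each tested gene of the polyamine lists for sgElovl1 against sgNT (left) and experiment 2 against experiment 1 (right), filled where the adjusted p was below 0.05, with the median of each list as a bar. Odc1 and Srm are the only filled points on the left, and on the right the median lies at -1.06 for the hypusine genes other than Dhps and at -0.96 for arginine and ornithine supply.

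Levels of different genes were set against each other per length, as CPM per kilobase of merged exons (GENCODE M21 on GRCm38). The mean over the 4 columns was highest for Oaz1 at 193, followed by Odc1 at 65.8 and Srm at 37.2. Srm lay above Sms in every column, at 69.0, 53.4, 14.4 and 11.9 against 13.3, 10.8, 9.31 and 8.64. The columns of Oaz1 (189 to 199) lay above all others, whereas those of Odc1 (40.8 to 94.9) and Srm (11.9 to 69.0) overlapped. Sat1 at 11.7, Azin1 at 11.4, Dhps at 10.6, Sms at 10.5 and Oaz2 at 9.76 could not be ordered beyond the spread of their columns. Amd1 followed at 7.65, between 3.56 and 11.7 and so overlapping its neighbours, and Smox was lowest at 3.31, between 2.83 and 3.95. The counts covered whole genes with introns, so that a level per kilobase of exons is an approximation.

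Some members have near copies in the genome that could share reads. Oaz1-ps had between 132 and 165 counts beside at least 24500 of Oaz1, Sms-ps between 12 and 24 beside at least 2794 of Sms, and Amd2 between 1 and 11 beside at least 630 of Amd1. On the same strand, only small RNA genes overlapped a member, a snoRNA in Odc1 and microRNA genes in Azin1 and Oaz1.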

How the data were processed

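Total RNA of sorted OT-I T cells from 8 labelled samples was sequenced with a strand-specific protocol. Per the methods and the processing notes, the authors aligned reads to GRCm39 with STAR 2.7.10b, counted whole genes with introns on the reverse strand with featureCounts 2.0.1 and summed the counts of replicate mice of an experiment. The deposited values are raw counts of 56805 genes in 4 columns, mapped to groups by the library names in the labels. Whether reads or fragments were counted is not given in the sources used here. No column was left unused. The design had allowed for separate libraries, so the merged columns were tested as deposited. The design text of the series describes cells from tumours, and the sample labels, which were followed, describe cells activated in vitro.

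Genes were filtered by filterByExpr, which left 16006, scaled by TMM and tested with edgeR 4.0.16 (R 4.3.3), by the quasi-likelihood test with guide and experiment as terms, 1 residual degree of freedom and Benjamini-Hochberg adjustment at 0.05. The estimated biological coefficient of variation was 6.98%. SE and 95% intervals come from that fit. The p-values measure only a spread between columns that is shared across genes. The prior degrees of freedom were estimated as infinite, so a gene's own spread had no separate weight. Log2 CPM used a prior count of 2. DESeq2 1.42.0, limma 3.58.1 and other scalings and filters were alternatives. The fit was tested on simulated data with known fold changes. The members and lists were chosen with earlier results of these data known. The 10 members and Elovl1 are named in every case, and of other lists up to 3 genes with the smallest p. Promoters came from RefSeq (GRCm38.p6), for 8 of the 10 members.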

Additional observations from a re-analysis of the deposited data

Results flagged for a closer look

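Smox, Dhps and Amd1 had log2 fold changes of sgElovl1 against sgNT with opposite signs in the experiments, and none of them passed the test over both. For Smox the values were 0.21 in experiment 1 and -0.10 in experiment 2, a difference of -0.31. For Dhps they were -0.10 and 0.20, a difference of 0.30. For Amd1 they were -0.01 and 0.10, a difference of 0.11. With 1 column per guide in each experiment, these differences were not tested.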

How the results depend on the processing

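No paired analysis was possible because each column sums both replicate mice, so that no column carries a replicate number to block on. The columns were matched by experiment instead, through the experiment term. Between the guides, 192 genes and 2 members (Odc1 and Srm) passed. The counts were 94 genes and 1 member (Srm) with no filter on low counts, 35 genes and 0 members with a mean of at least 5 CPM (5 members at an unadjusted p below 0.05), 26 genes and 0 members with either DESeq2 test (3 at an unadjusted p below 0.05), and 72 genes and 0 members (4 at an unadjusted p below 0.05) with the shift along the experiment difference removed. Without the experiment term edgeR called 0 genes (19 at an unadjusted p below 0.05) and 0 members. Only 1 member, Srm, passed with DESeq2 size factors or with mitochondrial and the 20 most counted genes left out of the scaling. Both passed with upper-quartile scaling and with limma-voom (193 genes). Adjusted p over these alternatives ran from 0.0135 to 1.00 for Odc1 and from 0.00139 to 1.00 for Srm, and both log2 fold changes stayed below 0. The split of higher against lower genes was 122 to 70, and 132 to 44, 182 to 57 and 173 to 44 under the other scalings.

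Leaving out each column in turn, with the contrast as the only term and a lone column assumed to vary like the others, gave between 0 and 1 genes and 0 members between the guides. The log2 fold change ran from -0.80 to 0.35 for Odc1 and from -1.81 to 1.18 for Srm, with 0.35 and 1.18 without sgNT of experiment 1 and 0.19 and 0.37 without sgElovl1 of experiment 2. In these fits the guide and the experiment are unevenly mixed by construction. Between the experiments, 7 to 9 members passed in every setting.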
